A study of Homo sapiens with 4 samples.

Results

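Histone genes, which code for the proteins that package DNA into nucleosomes, were followed in the human line HEK293 under control or CDC73 siRNA, in sparse and in confluent culture. The members were the probes whose only gene symbol in the platform annotation, checked against RefSeq, is that of a histone gene of the families H1, H2A, H2B, H3 or H4. They came to 91 probes of 77 genes, among 48803 probes with a value and 18852 named genes. Of these genes, 65 (73 probes) lie in the replication-dependent histone clusters or are single genes of that type, and 12 (18 probes) code for variants.

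HEK293 is a cell line derived from human embryonic kidney, and it carries adenovirus early genes, whose products act on RB and p53. The 4 groups were control siRNA in sparse cells, CDC73 siRNA in sparse cells, control siRNA in confluent cells and CDC73 siRNA in confluent cells, with 1 Illumina bead array each. All cells received 100 pmol of siRNA, were moved after 24 hours to a dish of 100 mm (sparse) or 35 mm (confluent), and were harvested 24 hours later. Whether transfections were shared between dishes is not given in the labels. Each difference between 2 arrays therefore has no replicate check and is given by its size.

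Core histones form the protein spool of the nucleosome and linker histones of the H1 family bind the DNA that enters and leaves it. Cluster histone genes have no introns in their usual transcript, are expressed in S phase, and give mRNAs that end in a stem-loop in place of a poly(A) tail. Some of them can also be read through to a downstream poly(A) site. Variants such as H3.3, H2A.Z and macroH2A are made throughout the cell cycle from ordinary polyadenylated mRNAs. The product of CDC73, parafibromin, belongs to the PAF1 complex of transcription elongation. That complex promotes the monoubiquitylation of H2B, and parafibromin has been linked to the processing of histone mRNA 3' ends. The RNA was amplified with a kit that starts cDNA from poly(A) tails, so the signals of cluster genes describe mainly transcripts with such a tail.

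The promoters of 6 cluster genes that rose with CDC73 siRNA in the fit described below are shown, with 3 motifs marked. The promoter of H2AC25, which also rose, is not shown. The motifs occurred in promoters of cluster genes that rose and of cluster genes that were not called, as counted below. Each line holds the 250 bases before the annotated start, 5' to 3' on the gene's strand, from the RefSeq promoter table (GRCh38.p14). Capitals mark 3 motifs on either strand, the TATA box written as TATAAA, the octamer written as ATTTGCAT, and the CCAAT box. On the other strand the CCAAT box has its reverse complement, ATTGG.
H2BC5 (chr6:26157871-26158120, plus strand): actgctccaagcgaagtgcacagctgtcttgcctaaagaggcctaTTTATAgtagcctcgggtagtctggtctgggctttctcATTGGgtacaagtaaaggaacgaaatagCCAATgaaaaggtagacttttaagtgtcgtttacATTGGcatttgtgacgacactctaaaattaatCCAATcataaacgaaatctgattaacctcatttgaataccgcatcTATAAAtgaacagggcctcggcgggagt
H2AC6 (chr6:26123922-26124171, plus strand): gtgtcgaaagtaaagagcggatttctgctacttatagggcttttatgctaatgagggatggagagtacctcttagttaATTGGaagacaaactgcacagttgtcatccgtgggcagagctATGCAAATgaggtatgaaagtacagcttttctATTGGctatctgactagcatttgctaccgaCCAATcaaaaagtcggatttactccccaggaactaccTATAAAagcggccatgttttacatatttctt
H2BC12 (chr6:27146859-27147108, minus strand): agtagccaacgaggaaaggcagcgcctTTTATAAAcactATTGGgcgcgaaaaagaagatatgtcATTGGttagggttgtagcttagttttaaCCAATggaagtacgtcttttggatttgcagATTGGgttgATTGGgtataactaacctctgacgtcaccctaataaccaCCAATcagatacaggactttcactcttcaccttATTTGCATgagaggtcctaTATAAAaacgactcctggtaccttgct
H1-2 (chr6:26056471-26056720, minus strand): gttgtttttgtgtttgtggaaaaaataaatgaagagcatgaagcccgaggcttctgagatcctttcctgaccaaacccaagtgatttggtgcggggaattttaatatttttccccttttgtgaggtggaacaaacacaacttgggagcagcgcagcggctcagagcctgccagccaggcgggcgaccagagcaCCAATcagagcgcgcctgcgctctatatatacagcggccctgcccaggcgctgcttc
H2AC18 (chr1:149842751-149843000, minus strand): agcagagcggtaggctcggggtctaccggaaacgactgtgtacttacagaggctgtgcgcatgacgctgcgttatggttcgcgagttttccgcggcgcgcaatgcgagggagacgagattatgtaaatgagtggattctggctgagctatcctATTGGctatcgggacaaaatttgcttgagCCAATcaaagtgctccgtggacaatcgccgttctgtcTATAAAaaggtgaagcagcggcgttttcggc
H4C8 (chr6:26285535-26285784, minus strand): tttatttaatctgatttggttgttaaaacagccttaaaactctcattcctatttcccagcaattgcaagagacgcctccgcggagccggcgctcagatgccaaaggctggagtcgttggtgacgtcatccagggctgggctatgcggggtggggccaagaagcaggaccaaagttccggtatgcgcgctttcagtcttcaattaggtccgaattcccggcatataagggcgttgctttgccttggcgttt

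RefSeq held a promoter for 71 of the 77 genes. Searched on both strands in windows of 250 bases, TATAAA was present in 40 of 60 cluster promoters (66.7%) and in 11.1% of 27305 promoters of all genes. CCAAT was present in 51 of 60 (85.0%) against 33.0%, and the octamer ATTTGCAT in 25 of 60 (41.7%) against 1.7%. The octamer stood in 14 of 18 H2B promoters and 10 of 14 H2A promoters, in 1 of 10 H3 promoters, and in none of the 12 H4 or 6 H1 promoters. Of 11 variant promoters, 4 held TATAAA, 8 held CCAAT and 1 held the octamer. Of 7 measured cluster genes that rose and have a promoter in the table, 4 held TATAAA, 6 held CCAAT and 2 held the octamer, and of 9 measured cluster genes that were not called, 7, 6 and 5 did. H4C8 held none of the 3 motifs in this window.

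Probe signals of the deposited intensity table still hold the background, so measured probes were set apart by their mean over the 4 arrays. A probe was measured when its mean log2 intensity was above the 99th percentile of 450 probes of olfactory receptor genes, a filter that does not look at the direction of a difference. In all, 14143 probes passed. A probe was called detected on an array when at most 1 in 100 probes of that panel reached its signal there, which held for 28.0% to 30.5% of probes per array. The HEK293 label was checked on 10 marker genes: VIM, KRT8, KRT18 and NEFL were detected on all 4 arrays, and PTPRC, CD3E, ALB and HBB on none. Against the list, NEFM was not detected and COL1A1 was detected on all 4 arrays. The single named CDC73 probe was not measured, with intensities of 72.3 (control, sparse), 83.5 (CDC73 siRNA, sparse), 98.3 (control, confluent) and 90.0 (CDC73 siRNA, confluent), so the siRNA groups rest on the labels.

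Of the 91 histone probes, 34 probes of 27 genes were measured, 31 of them detected on every array. Among cluster genes 20 of 73 probes passed: 1 of 6 for H1, 6 of 17 for H2A, 7 of 21 for H2B, 1 of 13 for H3 and 5 of 16 for H4. Among variants 14 of 18 probes passed. The other 57 probes had intensities between 48.7 and 131.8 on all arrays. For 50 genes no probe was measured, namely H1-1, H1-3, H1-4, H1-5, H1-6, H1-7, H1-8, H2AC1, H2AC4, H2AC7, H2AC8, H2AC11, H2AC12, H2AC13, H2AC14, H2AC15, H2AC21, H2BC1, H2BC3, H2BC4, H2BC6, H2BC7, H2BC9, H2BC10, H2BC13, H2BC14, H2BC15, H2BC17, H2BC18, H2BC26, H3-4, H3C2, H3C3, H3C4, H3C7, H3C8, H3C10, H3C11, H3C12, H3C13, H3C14, H4C1, H4C2, H4C4, H4C6, H4C7, H4C9, H4C11, H4C13 and H4C16. Nothing is known of their changes here, and 7 of the probes that were not measured, of H2AC8, H2AC11, H2BC4, H3-5, H3C4, H3C10 and H3C13, were detected on at least 1 array.

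With CDC73 siRNA, the measured cluster histones were mostly higher and the variants were not. In sparse cells 19 of 20 cluster probes were above 0, with a median log2 difference of 0.76, while 8 of 14 variant probes were above 0, with a median of 0.05. In confluent cells 17 of 20 cluster probes were above 0 with a median of 0.82, and 3 of 14 variant probes with a median of -0.17. Over all 14143 measured probes the medians were 0.01 and 0.01. At least 2-fold higher were 6 histone probes in sparse cells, where 1.48% of all probes were, and 8 in confluent cells, where 2.16% were. In sparse cells 1 histone probe (H2AZ2) was at least 2-fold lower, where 1.94% of all probes were, and none was in confluent cells, where 3.37% were. The 20 cluster probes are of 17 genes. With 1 probe per gene, a setting chosen after the values were seen, the cluster medians were 0.54 in sparse and 0.74 in confluent cells. The variant medians were then 0.08 and -0.17. Over all 73 cluster probes, with those near background included, the cluster medians were 0.11 and 0.10. These comparisons share no array, but each shares its arrays with the density comparisons given later.

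**Figure D1:**
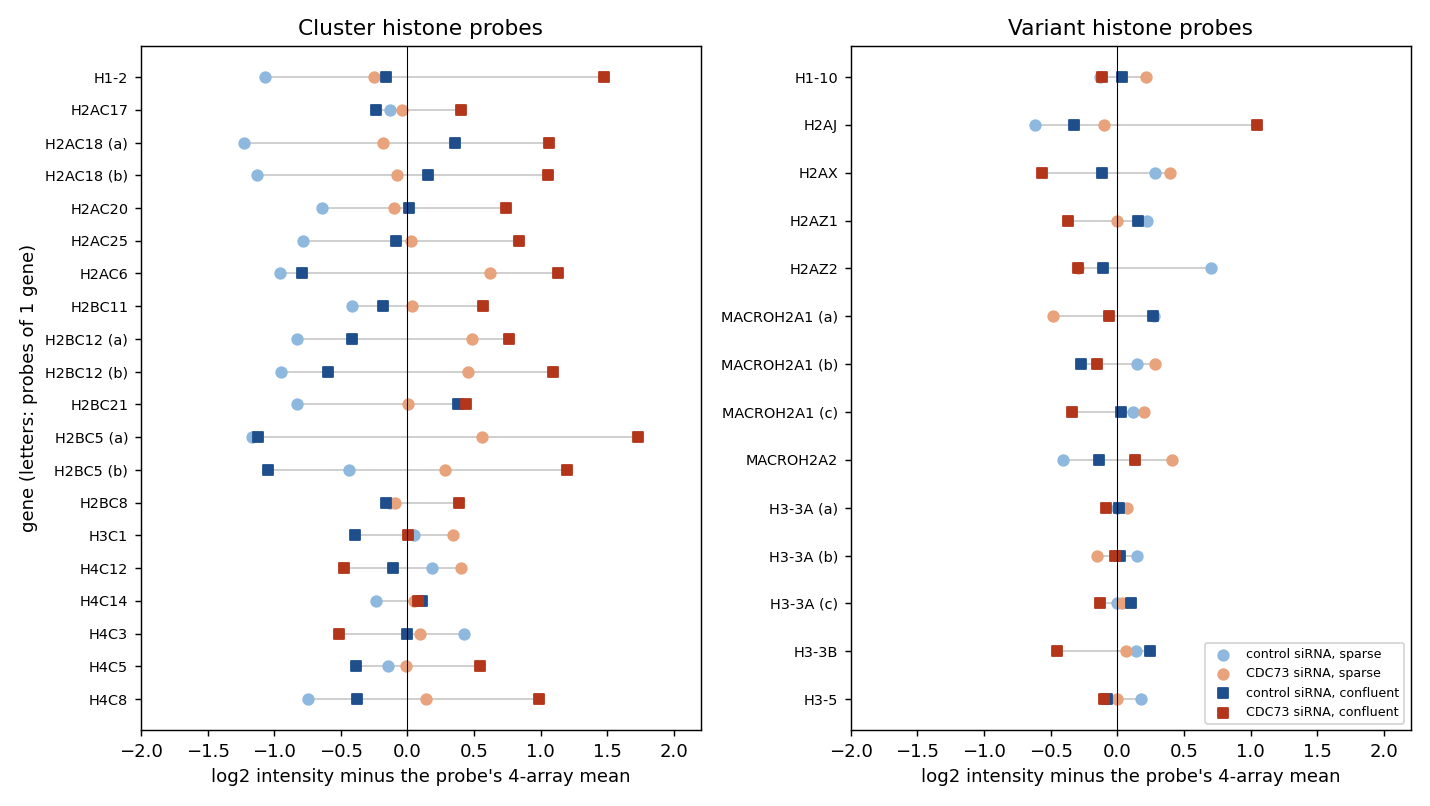
Each row is 1 measured probe and each point 1 array, placed by its log2 intensity minus the probe's mean over the 4 arrays; circles are sparse and squares confluent cells, blue shades control and orange or red CDC73 siRNA. For H2AC6, H2BC12 and both H2BC5 probes the CDC73 siRNA arrays lie on the right and the control arrays on the left, whereas for H2AC18 and H1-2 the control sparse array stands lowest and the CDC73 confluent array highest.

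An additive fit gave the only error the layout allows. It estimated 1 siRNA effect and 1 density effect per probe with limma over the 4 arrays, and took the departure from additivity, 1 degree of freedom per probe, as the error. Moderation gave every measured probe the same standard deviation, 0.274 on the log2 scale, and therefore the same standard error of 0.274 for each effect. The p-values treat this pooled value as known exactly. With 1 array per group, neither the standard error nor the p-values measure the spread between transfections or cultures. After Benjamini-Hochberg adjustment over all measured probes, 11 of 34 histone probes were called higher with CDC73 siRNA at an adjusted p under 0.05, where 1.76% of all probes were. They belong to 8 genes, H1-2, H2AC6, H2AC18, H2AC25, H2AJ, H2BC5, H2BC12 and H4C8. None was called lower, where 2.71% of all probes were. The 11 called probes were 10 of 20 cluster probes and 1 of 14 variant probes. At an unadjusted p under 0.05 in limma, 14 histone probes were higher, where 6.49% of all probes were, and 2 lower, where 7.83% were.

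H2BC5, an H2B gene of the large cluster on chromosome 6, had the highest siRNA effect of the 34 measured histone probes in this fit. Its first probe had deposited intensities of 223.3 (control, sparse), 635.7 (CDC73 siRNA, sparse), 285.6 (control, confluent) and 1082 (CDC73 siRNA, confluent). Both CDC73 siRNA arrays were above both control arrays, and the confluent one was the highest. The log2 differences were 1.72 in sparse and 2.85 in confluent cells, and 1.51 and 2.59 in the authors' deposited log2 table. In the limma fit the siRNA effect was 2.29 ± 0.27 (SE), 4.89-fold, with an adjusted p of 2.33e-13. A second probe annotated to the same transcript read 225.6, 344.9, 204.9 and 493.5 on the arrays in the same order, with differences of 0.72 and 2.24 and an effect of 1.48 (adjusted p 1.41e-05 in limma). The siRNA differences of the first and second probes lay 1.13 and 1.52 apart between densities. These were the largest departures from additivity among the measured histone probes. The SE and p-values do not reflect them, since the fit gave every probe the same pooled error. The remaining probe, annotated to another RefSeq transcript of the gene, was not measured.

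H2BC12, another H2B gene of chromosome 6, rose with CDC73 siRNA in both of its measured probes. The brighter of its probes had intensities of 6658 (control, sparse), 14967 (CDC73 siRNA, sparse), 9209 (control, confluent) and 17908 (CDC73 siRNA, confluent). The CDC73 siRNA arrays were again above both controls. The differences were 1.31 in sparse and 1.18 in confluent cells for this probe, and 1.41 and 1.69 for the second, which read 447.9, 1155, 690.0 and 1382 in the same order. Their fitted effects were 1.24 (adjusted p 5.74e-04) and 1.55 (adjusted p 4.94e-06) in limma.

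H2AC6, an H2A gene of the same chromosome, had intensities of 147.2 (control, sparse), 328.9 (CDC73 siRNA, sparse), 190.8 (control, confluent) and 367.1 (CDC73 siRNA, confluent). Its siRNA differences were 1.58 and 1.91, and its fitted effect 1.75 ± 0.27 (SE), 3.36-fold, with an adjusted p of 9.43e-08 in limma. This probe lies near the detection limit on the control arrays, and in the authors' deposited log2 table the difference in sparse cells was 1.18. H2BC4, an H2B gene that faces H2AC6 across a shared promoter, with annotated starts 246 bases apart, was not measured, with intensities of 119.3, 107.1, 116.3 and 125.0 in the same order.

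Such facing pairs were common, as histone H2A and H2B genes often share a promoter. Among members, 11 pairs of an H2A and an H2B gene had overlapping promoter windows on opposite strands. Both genes were measured in 1 pair, 1 gene in 5 pairs and none in 5 pairs. The first RefSeq window of H3C4, which was not measured, coincides with that of H2AC7. In the 1 pair measured on both sides, H2AC20 and H2BC21 of chromosome 1, the siRNA differences were 0.54 and 0.73 for H2AC20 and 0.83 and 0.06 for H2BC21, none of them called in the fit. H2BC21 was not detected on the control sparse array, and its difference in sparse cells was smaller, at 0.44, when no background was subtracted, and 0.43 from the authors' deposited log2 table. H2AC25, which was called, faces H2BC26, whose probe was detected on no array.

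H1-2, a linker histone gene of chromosome 6, rose with CDC73 siRNA and with density. Its intensities were 629.9 (control, sparse), 1113 (CDC73 siRNA, sparse), 1342 (control, confluent) and 2765 (CDC73 siRNA, confluent). The control sparse array was lowest and the CDC73 confluent array highest. The siRNA differences were 0.82 in sparse and 1.64 in confluent cells, the density differences 0.91 with control and 1.73 with CDC73 siRNA. In the limma fit the siRNA effect was 1.23 (adjusted p 7.21e-04) and the density effect 1.32 (adjusted p 1.26e-04). Of the other H1 genes on the array, none but the variant H1-10 was measured.

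H2AC18, an H2A gene of the smaller cluster on chromosome 1, behaved likewise. Its near-identical neighbour H2AC19 can share its probes, so the signal may be of the pair. Probe sequences were not available, so such sharing was not checked for this or other cluster genes. One probe had intensities of 895.6 (control, sparse), 1835 (CDC73 siRNA, sparse), 2377 (control, confluent) and 3125 (CDC73 siRNA, confluent). Control sparse was again the lowest array. The siRNA differences were 1.05 and 0.90 for this probe. They were 1.04 and 0.71 for the second, which read 744.8, 1517, 2413 and 2756 in the same order, with fitted effects of 0.98 (adjusted p 0.0134) and 0.88 (adjusted p 0.0351) in limma.

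The other called cluster genes had smaller effects. H4C8, an H4 gene of chromosome 6, had intensities of 148.3 (control, sparse), 226.9 (CDC73 siRNA, sparse), 210.6 (control, confluent) and 307.2 (CDC73 siRNA, confluent). Its differences were 0.88 and 1.36, and its effect 1.12 (adjusted p 0.00271 in limma). H2AC25, a single H2A gene elsewhere on chromosome 1, had intensities of 429.2, 742.6, 814.0 and 994.9 in the same order and an effect of 0.87 (adjusted p 0.0383 in limma). The calls of H2AC25 and of 1 H2AC18 probe were lost with a detection filter at the panel's 95th percentile and with detection on at least 1 array.

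Cluster probes that were not called included 4 of 5 H4 probes. H4C3, named after its values were seen, went the other way: its intensities were 44063 (control, sparse), 32325 (CDC73 siRNA, sparse), 34431 (control, confluent) and 22142 (CDC73 siRNA, confluent). The differences of -0.33 and -0.51 made it the lowest cluster probe in both siRNA comparisons, and its effect of -0.42 did not pass (adjusted p 0.546 in limma). The other cluster probes that were not called were of H2AC17, H2AC20, H2BC8, H2BC11, H2BC21, H3C1, H4C5, H4C12 and H4C14, with fitted siRNA effects from -0.07 (H4C12) to 0.64 (H2AC20).

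By family, the cluster H2B probes had the highest medians among families with more than 1 measured probe in confluent cells, at 1.18 (7 probes, all above 0), with 0.81 for H2A (6 probes, all above 0) and -0.03 for H4 (2 of 5 above 0). In sparse cells the medians were 0.83 for H2B, 0.93 for H2A and 0.23 for H4. The H2B probes are of 5 genes and the H2A probes of 5, so genes with 2 probes weigh more. By the brightest measured probe of each gene, the confluent medians were 0.74 for H2B and 0.90 for H2A. In sparse cells they were 0.83 and 0.81, so the order of H2A and H2B reversed at both densities. Of the called probes 4 were of H2A, 4 of H2B, 1 of H1 and 1 of H4. H3 had a single measured cluster probe, H3C1, with differences of 0.30 and 0.40. Differences between families were not tested.

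**Figure D2:**
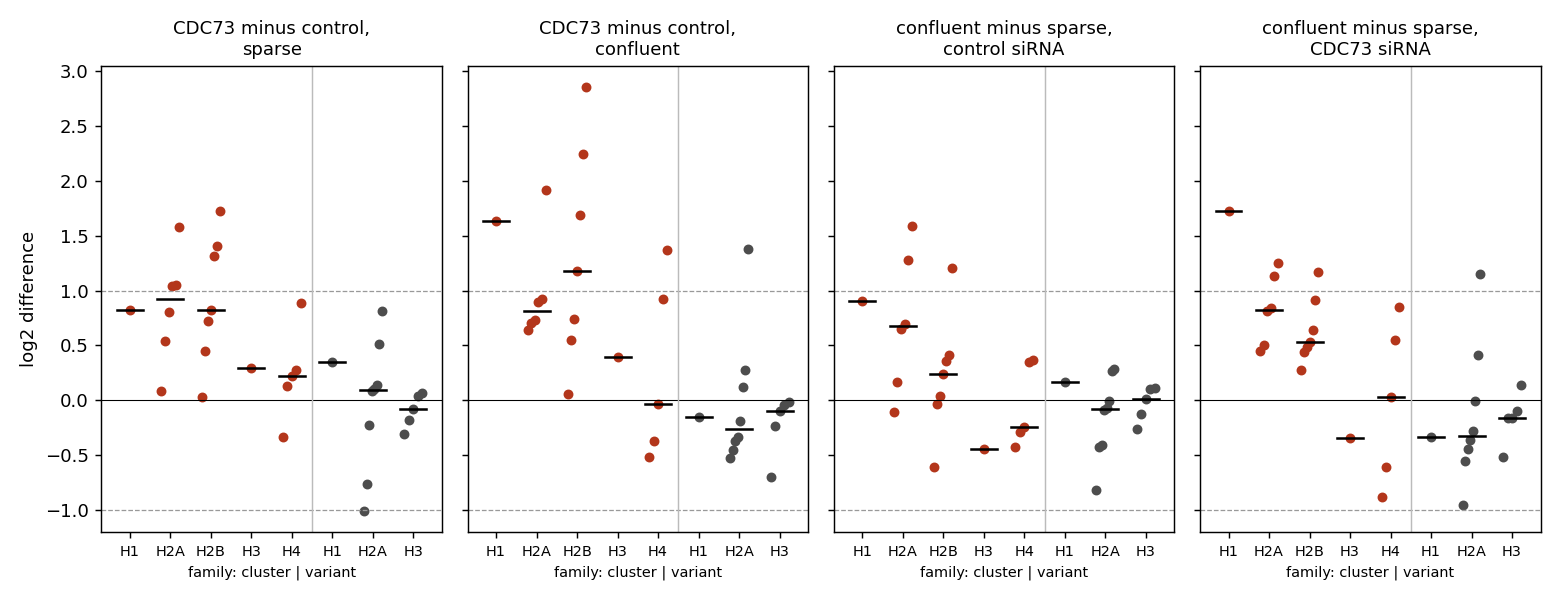
Points are measured probes and bars family medians, as log2 differences in the 4 comparisons; families left of the grey line are cluster histones (red) and right of it variants (grey), and dashed lines mark 2-fold. In both siRNA panels H2A and H2B cluster probes all lie above 0, while all variant medians lie below 0 in the confluent panel and the variant H1 family, 1 probe, stands at 0.35 in the sparse panel.

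Among the variants, H2AJ was the exception. H2AJ, an H2A variant gene on chromosome 12 with a polyadenylated mRNA, had intensities of 341.3 (control, sparse), 476.5 (CDC73 siRNA, sparse), 506.9 (control, confluent) and 792.3 (CDC73 siRNA, confluent). It was the only called variant, with differences of 0.51 and 1.37 and an effect of 0.94 (adjusted p 0.0183 in limma).

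H2A.Z is coded by H2AZ1 and H2AZ2, and this variant marks promoters. The H2AZ1 probe read 24373 (control, sparse), 19150 (CDC73 siRNA, sparse), 25365 (control, confluent) and 14818 (CDC73 siRNA, confluent), lower with CDC73 siRNA at both densities by differences of -0.23 and -0.52. H2AZ2 had intensities of 214.9, 137.3, 178.4 and 129.0 in the same order. Its difference of -1.0 in sparse cells was the 1 histone value at the 2-fold limit on the lower side, and it was -0.72 in the authors' deposited log2 table and -0.19 in confluent cells. Neither gene's siRNA effect passed, at -0.37 and -0.60 (adjusted p 0.620 and 0.262 in limma).

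H2AX, whose phosphorylated form marks DNA breaks, had intensities of 473.9 (control, sparse), 518.8 (CDC73 siRNA, sparse), 462.2 (control, confluent) and 252.7 (CDC73 siRNA, confluent). The CDC73 confluent array was the low one, and the siRNA differences were 0.11 and -0.45. The H3.3 genes were H3-3A, whose brightest probe read 33776, 32530, 36714 and 31783 in the same order and whose 3 measured probes had siRNA differences between -0.30 and 0.07, and H3-3B, with intensities of 2148, 2046, 2541 and 1134 in the same order. The other H3-3A probes read 18359, 14593, 18743 and 15264, and 23558, 22673, 28080 and 20595. For H3-3B the differences were -0.08 in sparse and -0.70 in confluent cells. H3-5, a retrogene derived from an H3.3 gene that can share signal with it, read 2068, 1836, 1962 and 1349 and was at -0.18 and -0.02.

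The macroH2A variants, which carry a large extra domain, had differences of both signs. MACROH2A2 had intensities of 3698 (control, sparse), 6194 (CDC73 siRNA, sparse), 4660 (control, confluent) and 4127 (CDC73 siRNA, confluent). Before normalization its CDC73 confluent array was below the control confluent array. After normalization both CDC73 siRNA arrays were above both control arrays, with differences of 0.81 and 0.27. Intensities are given before normalization and differences after it, so the direction can change. This also held in confluent cells for the second MACROH2A1 probe given below. It held for other printed values too, among them H2BC21 and SLBP in confluent cells and the brightest H3-3A probe in sparse cells. The brightest MACROH2A1 probe read 17477, 17704, 18017 and 11766 in the same order, lowest on the CDC73 confluent array, with differences of 0.09 and -0.37. A second MACROH2A1 probe (1168, 1300, 1038 and 763.5) was at 0.14 and 0.12 and another (353.2, 235.8, 436.9 and 255.8) at -0.76 and -0.33, so probes of this gene disagreed in sign. H1-10, a linker variant, was at 0.35 and -0.15, with intensities of 1071, 1394, 1395 and 870.8. None of these variants passed in the fit.

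**Figure D3:**
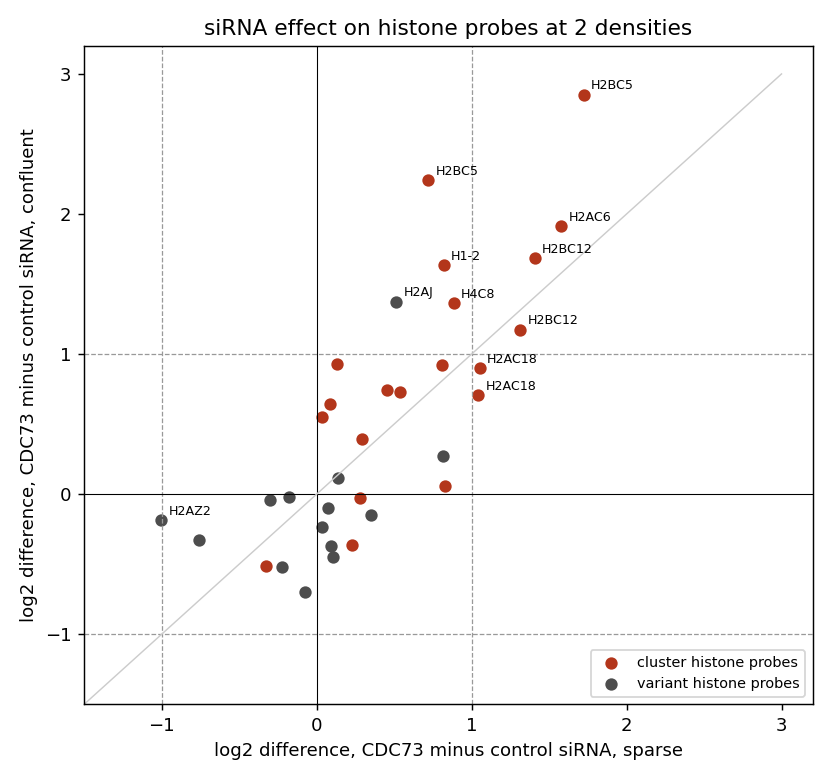
Each point is 1 measured histone probe, placed by the log2 difference between CDC73 and control siRNA in sparse cells (horizontal) and in confluent cells (vertical); red points are cluster and grey points variant histones, dashed lines mark 2-fold and the grey diagonal equal effects. Both H2BC5 probes, at 1.72 and 2.85 and at 0.72 and 2.24, lie above the diagonal, while no variant other than H2AJ lies past 2-fold on the higher side of either axis.

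The siRNA effect differed between densities by 1.13 and 1.52 (confluent minus sparse) for the H2BC5 probes, the only measured histone probes past 1 in either direction. It differed by 0.86 for H2AJ, 0.82 for H1-2, 0.82 for H2AZ2, 0.80 for H4C5 and -0.77 for H2BC21, the last resting on an array where the probe was not detected. The middle 95% of all measured probes lay between -1.09 and 1.05. These differences of single arrays were not tested.

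Fewer histone probes passed the 2-fold limit with density. With control siRNA, confluent cells had 3 histone probes at least 2-fold higher than sparse cells, where 3.08% of all probes were, and none at least 2-fold lower, where 1.88% were. They were both H2AC18 probes, at 1.28 and 1.59, and H2BC21, whose value rests on an array where it was not detected. H2BC21, an H2B gene of chromosome 1, had intensities of 112.1 (control, sparse), 147.8 (CDC73 siRNA, sparse), 211.9 (control, confluent) and 164.3 (CDC73 siRNA, confluent) and was not detected on the control sparse array. Its density difference with control siRNA was 1.21 here and 0.68 both without background correction and in the authors' deposited log2 table. With undetected values set at the detection limit, 2 histone probes were at least 2-fold higher. The cluster median was 0.29 and the variant median -0.04, beside -0.01 for all measured probes.

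With CDC73 siRNA, confluent cells had 5 histone probes at least 2-fold higher, where 3.95% of all probes were, and none at least 2-fold lower, where 3.59% were. They were H1-2 at 1.73, the H2AC18 probes at 1.13 and 1.25, H2BC5 at 1.17 for its first probe, and H2AJ at 1.15. The cluster median was 0.54 and the variant median -0.22, beside -0.01 for all measured probes. H2AX at -0.96 and H4C12 at -0.88 were the lowest histone probes.

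In the limma fit the density effect was called higher for 4 histone probes, where 5.09% of all probes were, and lower for none, where 3.63% were. At an unadjusted p under 0.05 in limma, 9 histone probes were higher, where 11.4% of all probes were, and 2 lower, where 10.1% were. The called probes were of H1-2, H2AC18 (1.42 and 1.20, adjusted p 2.96e-05 and 5.78e-04) and H2BC21 (0.82, adjusted p 0.0351); the H2BC21 call was lost under most other settings. The second H2BC5 probe moved in opposite directions with density, at -0.61 with control and 0.92 with CDC73 siRNA, which cancel in this fit.

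Grouped by chromosome after the values were seen, all 6 measured cluster probes of chromosome 1 (H2AC18, H2AC20, H2AC25, H2BC21 and H4C14) were higher in confluent cells with either siRNA, with medians of 0.95 and 0.83. The 14 probes of chromosome 6 had medians of 0.004 with control siRNA, 7 of 14 being above 0, and 0.52 with CDC73 siRNA. For the siRNA effect the medians were 0.82 and 0.72 on chromosome 1 and 0.59 and 1.05 on chromosome 6, in sparse and confluent cells. The chromosomes were not compared by a test, and 2 of the 6 probes of chromosome 1 are of H2AC18.

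**Figure D4:**
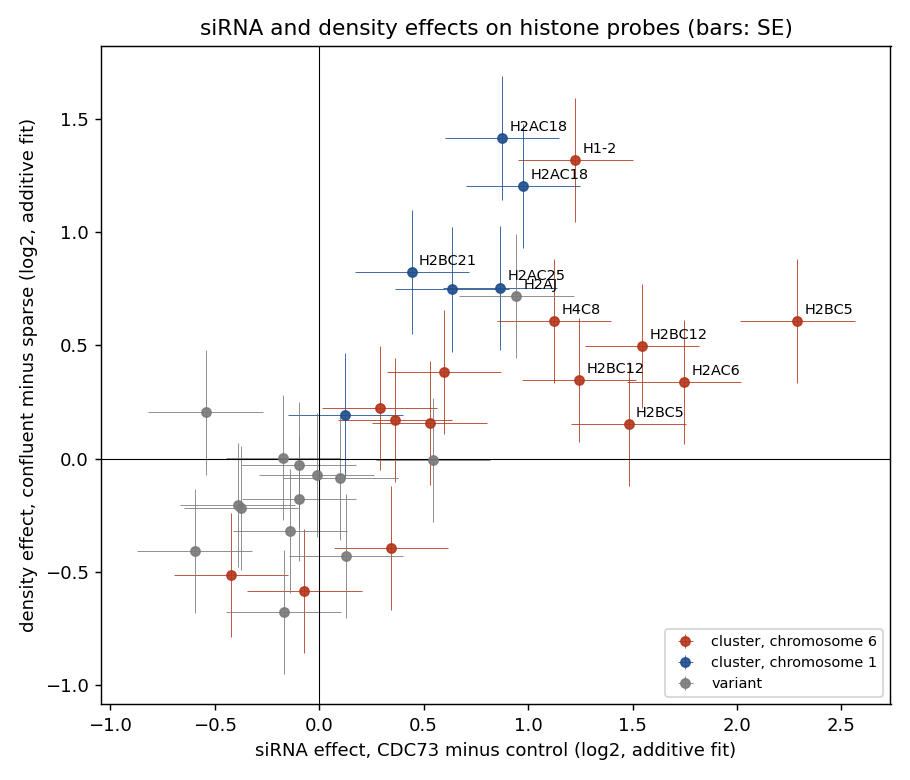
Points are measured histone probes placed by their siRNA effect (horizontal) and density effect (vertical) in the additive limma fit, with bars of 1 SE (0.274 for every probe); names mark probes with an adjusted p under 0.05 for either effect. H2BC5, H2BC12 and H2AC6 of chromosome 6 lie far to the right with density effects between 0.15 and 0.61, and the H2AC18 probes of chromosome 1 with H1-2 lie highest.

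Cluster genes known to give polyadenylated transcripts as well as stem-loop ones were listed as H1-2, H2AC6, H2BC4, H2BC5, H2BC12 and H2BC21. By the brightest measured probe of a gene, 5 of 6 were measured and 4 of them were called higher with CDC73 siRNA, where 1.76% of all probes were, with median differences of 1.31 in sparse and 1.64 in confluent cells. Of 59 other cluster genes 12 were measured and 3 called (H2AC18, H2AC25 and H4C8), with medians of 0.29 and 0.68. This list was chosen with earlier results known, and the 2 sets were not compared by a test.

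Genes that act on histone mRNA or histone proteins were read from lists chosen with earlier results known. Of 15 histone mRNA processing and histone locus genes 13 were measured and none was called for the siRNA effect, where 1.76% of all probes were called higher and 2.71% lower, with medians of 0.20 and -0.04. SLBP, which binds the stem-loop, had intensities of 1701, 1540, 2230 and 1710 and was at -0.17 and 0.13, and NPAT, which activates cluster histone transcription, was at 0.39 and -1.08, with intensities of 125.4, 143.3, 230.2 and 114.5 in the same order. The NPAT differences have opposite signs and partly cancel in the fit. CPSF2, a subunit of the 3' end cleavage machinery, was at -0.40 and -1.03, with intensities of 510.5, 409.4, 590.7 and 233.1. Of 17 histone chaperone genes 15 were measured and 2 were called, both lower, where 2.71% of all probes were called lower: HIRIP3, a partner of the chaperone HIRA, at an effect of -2.56 (adjusted p 3.94e-17 in limma) and ASF1A, a chaperone of H3 and H4, at -0.86 (adjusted p 0.0409 in limma). The HIRIP3 intensities were 1095, 206.7, 1420 and 246.4 in the same order, so that both CDC73 siRNA arrays were below both controls. SUPT6H, a histone chaperone of elongating polymerase, read 120.1, 143.5, 114.0 and 136.9 and was at 0.52 and 1.01. Both control values lie below the detection limits of those arrays, 121.28 (sparse) and 122.59 (confluent), so both differences rest on undetected signals.

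Genes of G1/S and DNA replication, the phase in which cluster histones are normally made, were mostly above 0 in sparse cells with CDC73 siRNA. In confluent cells these genes were mostly below 0, while most cluster histones were above 0 at both densities. Of 20 such genes 18 were measured. In sparse cells 17 of 18 were above 0 with CDC73 siRNA (median 0.30), where 51.1% of all probes were. The cluster histone median there was 0.76. In confluent cells 4 of 18 were above 0 (median -0.49), where 50.7% of all probes were. The cluster histone median there was 0.82. None was called in the fit, where 1.76% of all probes were called higher and 2.71% lower. The fit averages over densities, so differences of opposite sign cancel in it. The lack of calls therefore does not speak to a response at either density. UHRF1, which helps to maintain DNA methylation, read 6761, 7650, 8635 and 3126 and was at 0.26 and -1.04. Cell cycle phase was not measured, and its part in the histone values was not tested.

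All sizes depend on the array scaling. With the arrays scaled to equal medians over all probes, the median of the measured probes moved to -0.38 for the siRNA comparison in confluent cells and to 0.20 and -0.24 for density with control and CDC73 siRNA. In that setting 4 histone probes, of H2AC6, H2BC5 and H2BC12, were still called higher with CDC73 siRNA. Of all 14143 measured probes 32 were called higher there, and 249 with quantile normalization.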

How the data were processed

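RNA of 4 HEK293 groups was purified with an RNeasy kit and amplified with a TotalPrep kit, per the labels' protocols, and read on 1 Illumina bead array per group. The deposited intensity table holds probe signals that are not normalized, per the file headers, for 49576 probes, of which 773 have no value. The authors' deposited log2 table holds values with a median of 6.415 on each array, and its normalization is not given in the sources used here. The platform annotation gave 28098 probes 1 gene symbol, 13 several and 20692 none, and symbols were updated through RefSeq.

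Intensities were corrected by normexp on the 450 olfactory receptor probes with an offset of 16, normalized by quantiles and log2 transformed with limma 3.58.1 in R 4.3.3. Total signal per array was 22948100 to 28273400, and the detection limit 102.79 to 122.59. Differences are between single arrays. Probes of 1831 genes with 2 measured probes gave a standard deviation per probe of 0.27 to 0.351 for them, which holds probe error only. An additive limma fit with Benjamini-Hochberg adjustment over 14143 probes gave p-values; any interaction enters its error. It was tested on simulated data. The precision is limited by the number of arrays.

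Values on every array are given for measured members at least 2-fold different in any comparison, for the brightest probe of each variant and for their other measured probes, and the rest by range. Members, lists and this rule were chosen with earlier results of these data known. Alternatives were the background correction, offset, scaling, detection filter, the authors' log2 table and 1 probe per gene.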

Additional observations from a re-analysis of the deposited data

Results flagged for a closer look

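The second H2BC5 probe moved with density in opposite directions under the 2 siRNAs, with a log2 difference between confluent and sparse cells of -0.609 with control siRNA and 0.915 with CDC73 siRNA. Each value is a difference between 2 single arrays, and the difference between them was not tested. The first H2BC5 probe gave 0.042 and 1.171.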

How the results depend on the processing

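No paired analysis was possible because every group has 1 array, all numbered replicate 1, and for the same reason no array could be left out. Of the values that answer a comparison, 199 stayed within the limits set for them under the alternatives, 24 moved and 1 reversed, and of values of single probes 389 stayed and 43 moved. The count of histone probes at least 2-fold lower with CDC73 siRNA in sparse cells went from 1 to 0 without background correction, with an offset of 50, with median scaling and in the authors' log2 table, and to 2 with the panel's 95th percentile, with detection on at least 1 array compared and without a filter.

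With the 95th percentile, the cluster median in sparse cells was 0.444 and its distance from the variant median 0.390. With median scaling the cluster median for CDC73 siRNA in confluent cells was 0.402 with 1 probe at least 2-fold lower. Density with CDC73 siRNA then gave 1 probe higher and 2 lower. The medians of all measured probes were then -0.383 for siRNA in confluent cells and -0.235 for density with CDC73 siRNA. The share of all probes past 2-fold was not counted with median scaling, so these counts cannot be told apart from that general shift. The limma fit called 4 histone probes higher for siRNA and 2 for density, all among the 11 and 4 reported. Of all measured probes it called 32 and 222 higher, where quantile normalization gave 249 and 720. Without a filter, which adds 57 histone probes near background, the cluster medians were 0.112 and 0.096 for siRNA in sparse and confluent cells and -0.012 and 0.083 for density with control and CDC73 siRNA. The distances between cluster and variant medians were then 0.031, 0.218, -0.012 (reversed) and 0.270. The limma fit called 0 histone probes for either effect in this setting, and 0 of all 48353 probes in it. The cause of these moves was not tested. All 11 siRNA calls were kept without background correction, with an offset of 50, in the authors' log2 table and with detection on all 4 arrays. With the 95th percentile and with detection on at least 1 array compared, 9 of the 11 were kept, without H2AC25 and 1 H2AC18 probe. The setting of 1 probe per gene was chosen after seeing the data and gave 8 siRNA calls.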
